A study of Drosophila melanogaster with 40 samples.

Results

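Macroautophagy breaks down cell material by wrapping it in a membrane that then fuses with the lysosome. The 10 genes described here encode proteins of that pathway in Drosophila melanogaster: the kinase Atg1 and its partners Atg13, Atg17 and Atg101, the membrane supply and lipid transfer proteins Atg9, Atg2 and Atg18a, the ubiquitin-like proteins Atg8a and Atg8b, and the cargo receptor ref(2)P. They were chosen by name, through their FlyBase identifiers, from 17609 genes in the count table, and all 10 were found there. In flies the Atg1 complex receives signals from the nutrient sensor TOR, which insulin signalling activates, and the fat body is the tissue in which starvation-induced autophagy is best known. The ref(2)P protein, the fly counterpart of p62, is itself degraded by autophagy, so its RNA and its protein need not move together. Only RNA was measured here.

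RNA of whole flies was sequenced at its 3' end in 40 libraries. The 14 ablated libraries came from flies labelled insulin ablated, whose insulin-producing cells, neurons of the brain that release insulin-like peptides, had been removed according to the design text. The other 26 libraries came from flies labelled wildtype. Old ablated flies gave 7 libraries, young ablated flies 7, old wild-type flies 13 and young wild-type flies 13. Each of these strata held climbers collected at 0, 1, 2, 4, 6 and 8 h after a heat shock and 1 control at 4 h without heat shock, whose climbing was not assessed. The wild-type strata also held non-climbers, flies that failed a climbing test, at each of those hours. The driver or agent of the ablation, the strain, the sex, the age in days and the number of flies pooled were not given in the sources used here. Every condition was a single library, so p-values refer to the scatter around additive terms for stratum, hour and climbing and not to repeated samples of 1 condition.

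Libraries held 11714961 to 48747409 counts. Levels are CPM, a gene's counts scaled to a common library size with TMM factors, and levels of different genes are not compared because the counts carry no length scale. As a check of the genotype labels, Ilp2, Ilp3 and Ilp5, peptides of the ablated cells, together had 0.220 ± 0.305 CPM (SD, n = 14) in ablated and 2.26 ± 0.787 CPM (SD, n = 26) in wild-type flies (two-sided permutation test, p = 1e-05, the lowest that 100000 resamples allow). That test treats libraries as exchangeable although they share strata and batches. The highest ablated library had 1.01 CPM and the lowest wild-type library 1.06 CPM. An index of 14 inducible heat shock genes, their average log2 CPM, was 2.34 in the library labelled ablated young 6 h and 4.70 in the library labelled ablated young control, against 2.07 to 3.59 in the 3 other controls, and the calls that change without these libraries are named beside the results. All 12 eggshell, 7 muscle and 6 neuron markers had counts in every library of these whole flies. The 5 batches of the labels followed genotype, age and hour: batch 1 held only young wild-type libraries, batch 5 only ablated ones, and batch 4 alone held both genotypes.

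The positions below are those of the Ensembl annotation of the dm6 assembly. Atg1 (FBgn0260945) lies at chr3L:12784429-12805116 on the minus strand, Atg2 (FBgn0044452) at chr3L:2774338-2780677 on the plus strand and Atg18a (FBgn0035850) at chr3L:8186857-8191118 on the plus strand. Atg13 (FBgn0261108) lies at chr3R:8349815-8352817 and Atg17 (FBgn0037363) at chr3R:5669713-5679930, both on the plus strand, and Atg8b (FBgn0038539) at chr3R:17724410-17725063 on the minus strand. Atg8a (FBgn0052672) lies at chrX:10764878-10768338 on the minus strand and Atg101 (FBgn0030960) at chrX:18791668-18793517 on the plus strand. Atg9 (FBgn0034110) lies at chr2R:16294400-16297232 and ref(2)P (FBgn0003231) at chr2L:19542468-19545548, both on the plus strand. Exons of ref(2)P share 173 bases with exons of CG10337 on the opposite strand, which had a median of 45.5 counts per library against 2840.5 counts for ref(2)P. The strand setting of the counting was not stated, so reads from those bases cannot be assigned. Atg1 and Atg101 also overlap other genes, CG42709 and S6KL, but share no exon base with them.

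Of the 10 members, 9 passed the filter on low counts and were tested, with median counts per library between 311.5 for Atg101 and 4528.5 for Atg8a. Atg8b did not pass and is described on its own.

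**Figure D1:**
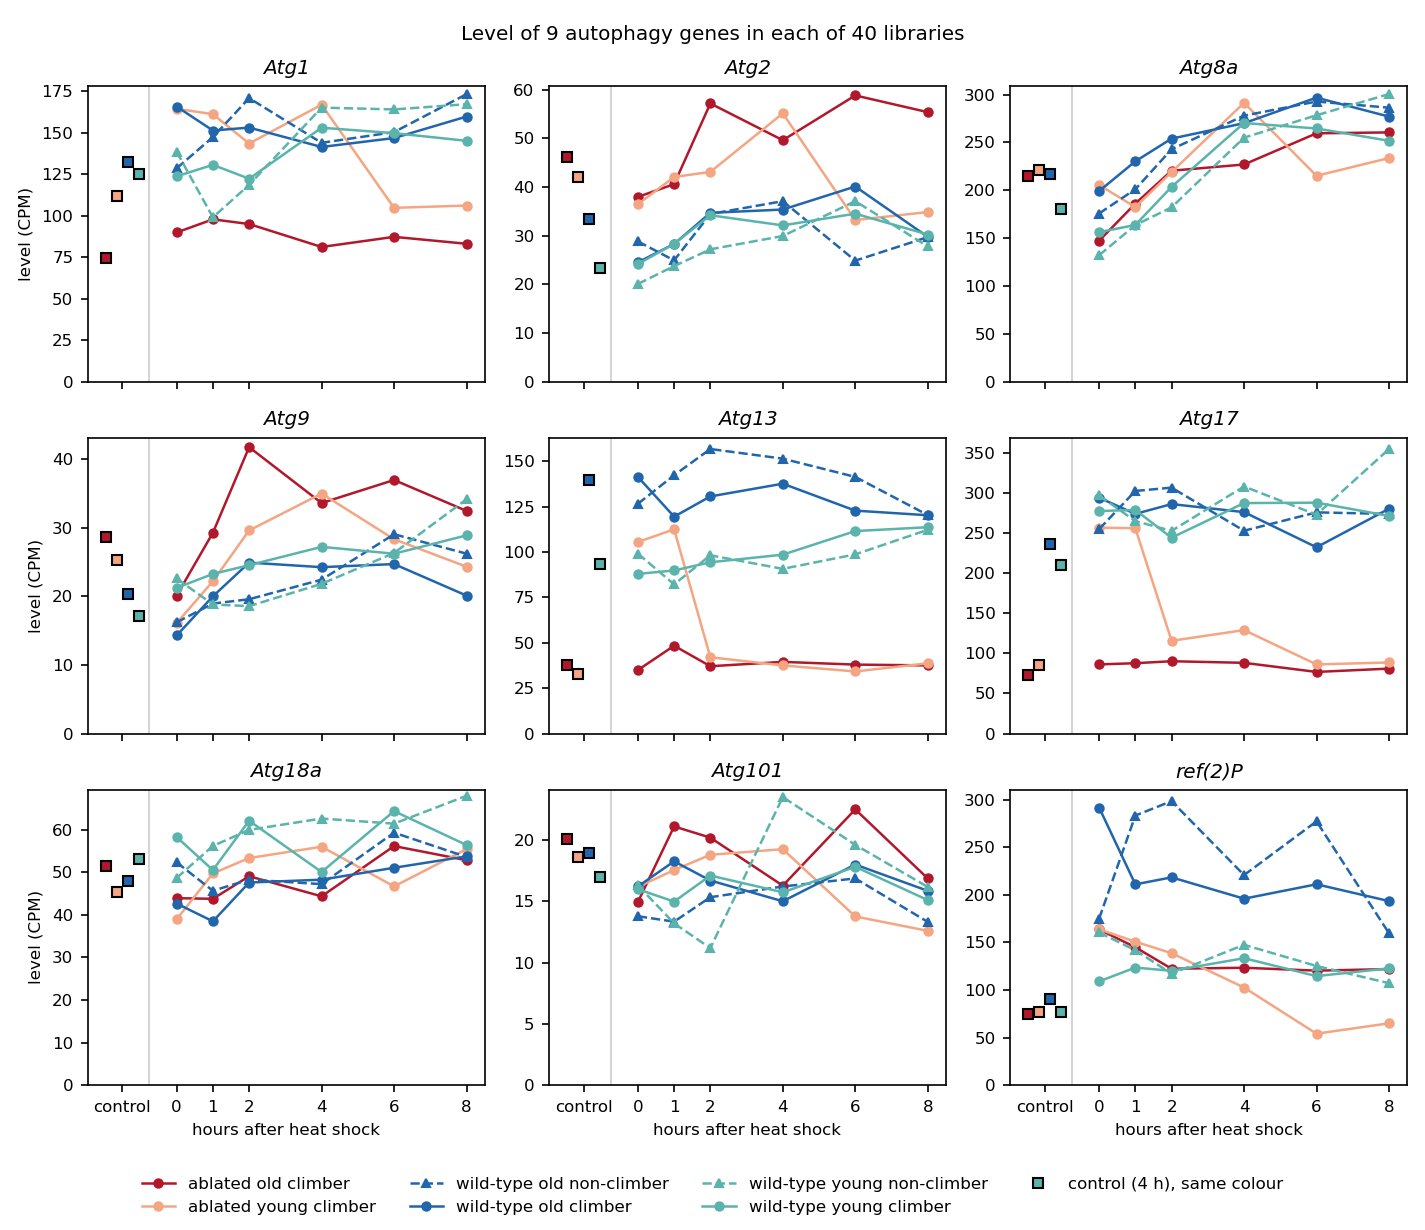
Level (CPM, linear axis from 0) of each of the 9 tested members against hours after heat shock, 1 point per library, with lines joining libraries of 1 stratum and climbing class and squares for the 4 controls. Atg8a is higher at 8 h than at 0 h in all 6 series, though not in steady steps in each. Atg13 and Atg17 lie far below wild type in 12 of 14 ablated libraries, and ref(2)P lies above the controls in most heat-shocked libraries.

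Recovery after heat shock was asked first, by setting 8 h against 0 h and by testing whether the 6 hours differed at all. Atg8a, the ubiquitin-like protein that is attached to the growing membrane and also binds cargo receptors, rose in this interval. It had 234, 269 and 301 CPM (lowest, median and highest of 6 libraries) at 8 h, against 132, 166 and 205 CPM at 0 h. The 8 h and 0 h libraries did not overlap. Here and below, the share of all genes whose ranges did not overlap was not counted. Its median over the 6 libraries of each hour was 166 CPM at 0 h, 184 CPM at 1 h, 219.8 CPM at 2 h, 270.2 CPM at 4 h, 271.5 CPM at 6 h and 268.7 CPM at 8 h, so the median climbed until 4 h and then changed little. Single series moved by -0.32 to 0.24 on the log2 scale from 4 h to 8 h, 4 up and 2 down. A test of 8 h against 4 h was not run. The fitted log2 fold change of 8 h against 0 h was 0.67 ± 0.09 (SE), with an adjusted p of 1.93e-06 in edgeR's quasi-likelihood test over all 11449 genes tested. It was higher at 8 h in 6 of 6 series, by 0.19 to 1.19 on the log2 scale. Since most 8 h and 0 h libraries came from different batches, 4 h was also set against 0 h in the 4 series where both hours shared a batch. Atg8a was higher at 4 h in all 4, by 0.50 to 0.95.

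Atg9, the membrane-spanning protein carried on the vesicles that seed the autophagosome, rose over the same hours. It had 20.1, 27.5 and 34.1 CPM at 8 h (lowest, median and highest of 6), against 14.3, 18.2 and 22.6 CPM at 0 h. The ranges of the hours overlapped slightly, yet each of the 6 series was higher at 8 h, by 0.44 to 0.69 (log2 fold change 0.58 ± 0.13 SE, adjusted p = 0.00201). Within batch, Atg9 was higher at 4 h than at 0 h in 3 of 4 series. In the remaining series, young wild-type non-climbers, it had 21.8 CPM at 4 h and 22.6 CPM at 0 h.

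The partners Atg2 and Atg18a act together, Atg2 as the protein that moves lipid into the membrane and Atg18a as the phosphoinositide-binding protein that places it there. Atg18a had 52.8, 54.6 and 68.0 CPM at 8 h, against 39.0, 46.3 and 58.3 CPM at 0 h (lowest, median and highest of 6). These ranges overlapped, and its change was small (log2 fold change 0.26 ± 0.08 SE, adjusted p = 0.0244). The 8 h change of Atg18a did not pass without the 2 young ablated libraries at 0 h and 1 h (0.23, adjusted p = 0.0511) or with batch as a covariate (0.30, adjusted p = 0.213). Atg2 differed among the 6 hours (adjusted p = 0.0104), with fitted hours at most 0.48 apart, but 8 h against 0 h did not pass (0.26 ± 0.11, adjusted p = 0.123). Its median was 26.7 CPM at 0 h, 34.6 CPM at 2 h, 36.2 CPM at 4 h and 30.0 CPM at 8 h, and it was higher at 4 h than at 0 h in 6 of 6 series and in the 4 of them that shared a batch. Without the 6 libraries of 0 h, the differences of Atg2 and Atg9 among the remaining hours did not pass (adjusted p = 0.250 and 0.280), and that of Atg18a did not pass without the libraries of 0, 1, 6 or 8 h (adjusted p = 0.0889, 0.132, 0.0841 and 0.147).

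In all, 3 of 9 members passed in 8 h against 0 h, all higher at 8 h, where 10.5% of all genes tested passed. Among the 6 hours 4 of 9 passed (Atg2, Atg8a, Atg9 and Atg18a), where 8.71% of all genes passed. With batch as a covariate the test among hours held for Atg8a (adjusted p = 0.000106) but not for Atg2, Atg9 or Atg18a (adjusted p = 0.126, 0.121 and 0.259), and 8 h against 0 h held for Atg8a (0.71) and Atg9 (0.72, adjusted p = 0.0465). The median log2 fold change of the 9 members was 0.03 in 8 h against 0 h, and that of all genes was -0.06. Atg1, Atg13, Atg17 and Atg101, the kinase and its partners, had log2 fold changes of 0.03, -0.22, -0.24 and -0.06 and none of them passed. Summed eggshell markers, which also moved over these hours, had a median of 3141 CPM at 8 h and 5522 CPM at 0 h, with 6 of 12 markers called lower, and their part in the changes was not tested.

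**Figure D2:**
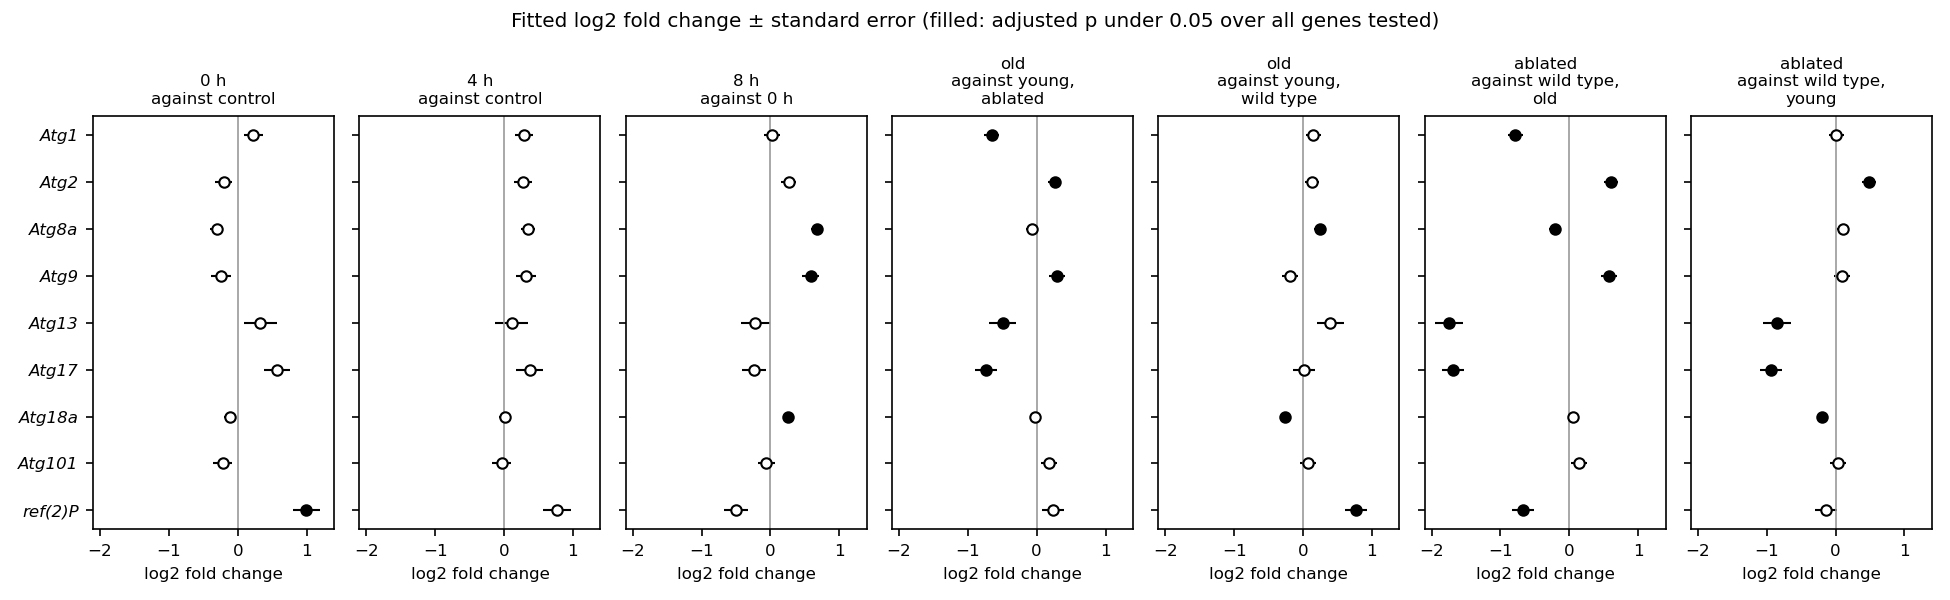
Fitted log2 fold change (points) with its standard error (bars) for the 9 tested members in 7 comparisons, tested group named first. Filled points passed an adjusted p of 0.05 over all genes tested. The 3 filled points of 8 h against 0 h all lie right of 0, and 7 of 9 points are filled in old ablated against old wild-type flies.

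The immediate response was asked by setting 0 h and 4 h against the controls. Of the 9 members, ref(2)P, which binds ubiquitin-tagged cargo and Atg8a, passed at 0 h. The heat-shocked 0 h libraries had 109, 164 and 292 CPM (lowest, median and highest of 6). The controls had 75.3 CPM in old ablated, 77.3 in young ablated, 90.6 in old wild-type and 76.9 CPM in young wild-type flies. Every 0 h library lay above every control. The log2 fold change was 1.00 ± 0.20 (SE, adjusted p = 0.00260), and each of the 6 series was higher at 0 h than its control, by 0.51 to 1.69. In the 2 series whose 0 h library shared a batch with the control, both of ablated flies, the difference was 1.12 in old and 1.08 in young flies. Controls were collected at 4 h, so hour of collection differs from 0 h as well as heat.

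At 4 h the level of ref(2)P was 123 CPM in old ablated climbers, against 75.3 CPM in their control, and 103 CPM in young ablated climbers, against 77.3 CPM. In old wild-type flies it was 221 CPM in non-climbers and 196 CPM in climbers, against 90.6 CPM in the control, and in young wild-type flies 148 CPM in non-climbers and 133 CPM in climbers, against 76.9 CPM. All 6 libraries exceeded their controls, by 0.41 to 1.28 in the 4 series within a batch. The fitted difference of 0.77 ± 0.20 did not pass (adjusted p = 0.0536). It passed in 9 of 18 alternatives, for example at 0.86 (adjusted p = 0.00710) without the ablated young control and ablated young 6 h libraries. Atg8a at 4 h was also above its control in 6 of 6 series (0.35 ± 0.10, adjusted p = 0.0884, and 0.37 with 0.0410 without those 2 libraries), and at 0 h below it in 6 of 6 (-0.31 ± 0.10, adjusted p = 0.0732). Atg17, Atg9, Atg2 and Atg1 were likewise above the control at 4 h in 6 of 6 series without passing.

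So 1 of 9 members passed in 0 h against control, where 3.87% of all genes passed, and 0 of 9 in 4 h against control, where 0.769% passed. At an unadjusted p under 0.05, 5 of the 9 members passed at 4 h, as did 1454 of all 11449 genes tested. Both comparisons used the same 4 controls. The count of all genes at 4 h depended on single controls: 88 genes passed with all libraries, 5 without the young wild-type control, 7 without the old wild-type control, 13 without the old ablated control and 277 without the young ablated control. At 0 h 443 genes passed with all libraries and 294 without the old ablated control.

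For ref(2)P, 8 h against 0 h did not pass (-0.50 ± 0.17, adjusted p = 0.0603), but it did without the ablated young control and 6 h libraries (-0.49, adjusted p = 0.0228). It had 65.1, 122 and 193 CPM at 8 h, against 109, 164 and 292 CPM at 0 h (lowest, median and highest of 6), and was lower at 8 h in 5 of 6 series. Young ablated climbers had 164, 151, 139, 103, 54.2 and 65.1 CPM at 0, 1, 2, 4, 6 and 8 h, so the last 2 libraries lay below the stratum's control of 77.3 CPM. The 6 h library of that series is the one with few heat shock transcripts (index 2.34). The control of that stratum had an index of 4.70, above the 2.07 to 3.59 of the other controls. A level of ref(2)P below that of unheated flies is therefore not shown by these libraries.

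The effect of age was asked within each genotype. In wild-type flies ref(2)P was higher in old than in young libraries. Heat-shocked old libraries had 159.7, 215 and 298 CPM (lowest, median and highest of 12), against 107, 123 and 161 CPM in young ones. Only 1 old library lay within the young range. The controls without heat shock were closer, with 90.6 CPM in the old and 76.9 CPM in the young library. The log2 fold change was 0.77 ± 0.16 (SE, adjusted p = 0.000594), and 13 of 13 pairs matched for hour and climbing class or control were higher in old flies, by 0.12 to 1.42. Atg8a was also higher in old wild-type flies (0.25 ± 0.08, adjusted p = 0.0241, 11 of 13 pairs) and Atg18a lower (-0.26 ± 0.07, adjusted p = 0.00639, lower in 12 of 13 pairs).

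Atg13, the regulatory partner of the Atg1 kinase that links it to TOR, had 119.5, 138 and 157 CPM in the 13 old wild-type libraries and 82.2, 98.2 and 114 CPM in the 13 young ones. These ranges did not overlap, and all 13 pairs were higher in old flies. The fitted difference of 0.40 ± 0.19 did not pass with all libraries (adjusted p = 0.137). Without the 2 young ablated libraries at 0 h and 1 h it was 0.39 and passed (adjusted p = 0.000115). The call of Atg8a in old against young wild-type flies was lost without the 1 h or 2 h libraries or the young wild-type control (adjusted p = 0.117, 0.0921 and 0.0594).

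In wild-type flies 3 of 9 members passed with age, where 23.5% of all genes did. No matched pair of old and young wild-type libraries shared a batch. With batch as a covariate no member passed, and the estimates were 0.62 for ref(2)P, 0.17 for Atg8a, -0.14 for Atg18a and, with the sign turned, -0.19 for Atg13 (adjusted p = 0.970). Summed muscle markers had medians of 688 CPM in old and 1616 CPM in young wild-type libraries, with 3 of 7 markers called lower in old flies. The old wild-type climbers at 1 h, the library with the lowest total, stood apart with 4139 CPM, above every young wild-type library. The part of muscle in these differences was not tested.

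In ablated flies 5 members passed with age. Atg1, the kinase that starts autophagosome formation, had 74.4, 87.3 and 97.8 CPM (lowest, median and highest of 7) in old ablated libraries, against 105, 143 and 167 CPM in young ablated ones. The ages did not overlap (log2 fold change -0.65 ± 0.11 SE, adjusted p = 1.30e-05). The young libraries were themselves spread, with 164, 161, 143 and 167 CPM at 0, 1, 2 and 4 h and 105 and 106 CPM at 6 and 8 h, beside 112 CPM in the control. In the single pair within a batch, at 8 h, Atg1 was lower in the old library by 0.35. Atg17, the scaffold of the kinase complex, was lower in old flies (-0.74 ± 0.16, adjusted p = 0.000428), and so was Atg13 (-0.50 ± 0.20, adjusted p = 0.0467), while Atg2 (0.26 ± 0.10, adjusted p = 0.0409) and Atg9 (0.30 ± 0.12, adjusted p = 0.0423) were higher.

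The 5 of 9 members called compare with 37.0% of all genes called. With batch as a covariate none of the 5 passed, and the estimates were -0.34 for Atg1, -0.12 for Atg17, -0.05 for Atg13, 0.55 for Atg2 and 0.70 for Atg9. Without the ablated young control and 6 h libraries, Atg1 (-0.75), Atg17 (-0.93) and Atg13 (-0.74) passed, while Atg2 (0.20, adjusted p = 0.130) and Atg9 (0.32, adjusted p = 0.0559) did not. The call of Atg13 rested on the young 0 h and 1 h libraries: without them its difference was 0.055, in the other direction (adjusted p = 0.690), and that of Atg17 shrank to -0.33 (adjusted p = 0.00175). Most of the 18 alternatives ended the calls of Atg2 (called in 8), Atg9 (in 6) and Atg13 (in 7), among them RLE scaling and DESeq2 for Atg2 and Atg9 and single hours or controls left out for all 3 (adjusted p up to 0.252 without 8 h for Atg2, 0.144 without 2 h for Atg9 and 0.262 without 0 h for Atg13). Summed neuron markers had 50.1 to 55.1 CPM in old and 145 to 504 CPM in young ablated libraries, with 6 of 6 markers called lower, and summed muscle markers 727 to 1011 CPM in old and 2365 to 4440 CPM in young ones, with 7 of 7 called lower. In whole-fly RNA, fewer cells of a type and less RNA per cell cannot be told apart. Of 7 haemocyte markers, 5 were called lower. The part of these tissues in the differences of Atg1 and Atg17 was not tested.

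Genotype was asked within each age, and Atg13 and Atg17 differed most among the 9 members. In old flies Atg13 had 35.0, 38.0 and 48.4 CPM in the 7 ablated libraries (lowest, median and highest), against 119.5, 138 and 157 CPM in the 13 wild-type libraries. Atg17 had 72.7, 86.3 and 90.2 CPM in the ablated and 233, 276 and 307 CPM in the wild-type libraries. Neither gene's genotypes overlapped. Of all genes, 56.9% were called in this comparison, and how many of them also had no overlap was not counted. The log2 fold changes were -1.75 ± 0.20 for Atg13 (adjusted p = 1.02e-08) and -1.69 ± 0.16 for Atg17 (adjusted p = 2.12e-10). Each was lower in 7 of 7 pairs of the same hour, between -2.01 and -1.30 for Atg13 and between -1.79 and -1.60 for Atg17 on the log2 scale.

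In young flies the ablated libraries fell into 2 levels. Atg13 had 105.5 and 113 CPM in the 0 h and 1 h ablated libraries, and 42.0, 37.5, 34.2 and 38.7 CPM in those of 2, 4, 6 and 8 h, with 32.9 CPM in the control. The 13 young wild-type libraries had 82.2, 98.2 and 114 CPM. Atg17 did the same, with 257 and 256 CPM at 0 h and 1 h, then 116, 129, 86.3 and 88.7 CPM at 2, 4, 6 and 8 h and 85.9 CPM in the ablated control, against 210.0, 278 and 355 CPM in wild type. The 2 early libraries thus lay inside the wild-type range of both genes, and the 12 other ablated libraries of either age lay below it. The early libraries had no count of Ilp2, Ilp3 or Ilp5, and old ablated flies at the same hours had low Atg13 and Atg17. Batch 4 held the 2 early libraries, 4 further young ablated libraries with 32.9 to 42.0 CPM of Atg13, and 2 old wild-type libraries with 120.3 and 120.4 CPM.

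**Figure D3:**
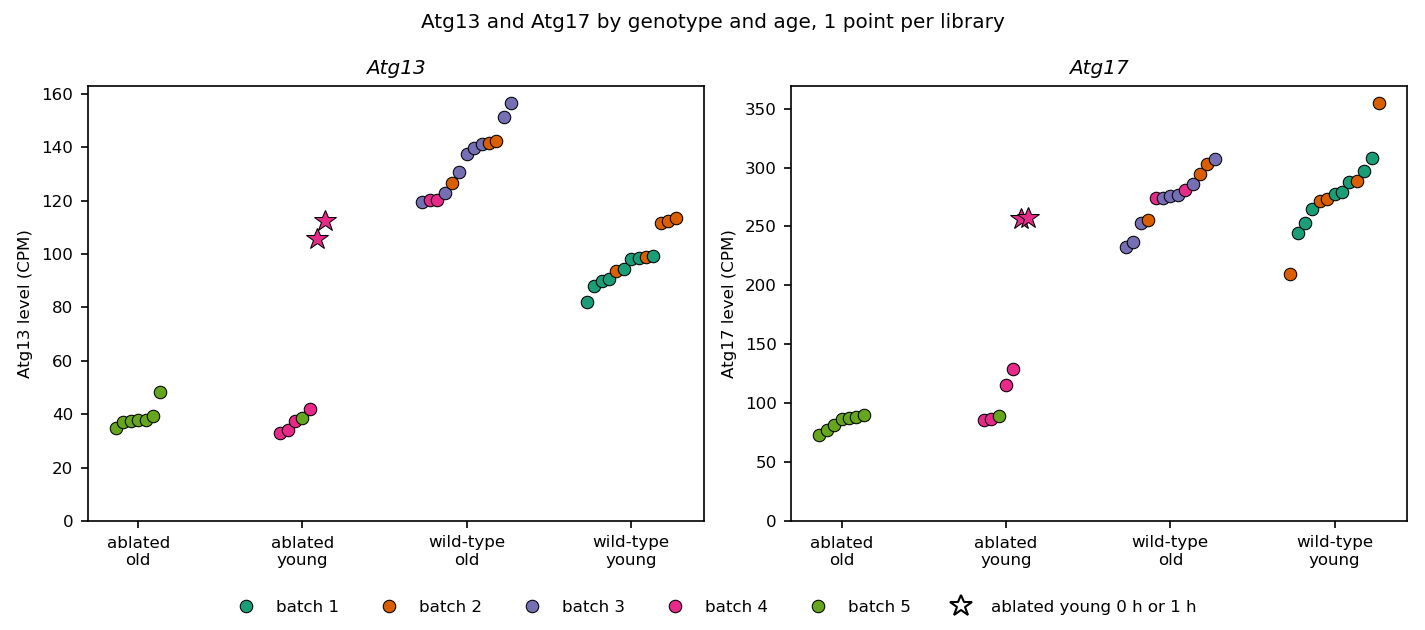
Levels (CPM, linear axis from 0) of Atg13 (left) and Atg17 (right) in each library, by genotype and age, with colour for the batch of the labels and stars for the young ablated libraries of 0 h and 1 h. The stars lie among the wild-type points, and the 12 other ablated points lie below all wild-type points, in batches 4 and 5.

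Over all young libraries, ablated against wild type gave log2 fold changes of -0.85 ± 0.20 for Atg13 (adjusted p = 0.00120) and -0.93 ± 0.16 for Atg17 (adjusted p = 3.15e-05). Without the 2 early libraries they were -1.46 (adjusted p = 9.08e-17) and -1.41 (adjusted p = 6.11e-17), and without the ablated young control and 6 h libraries -0.60 (adjusted p = 0.0256) and -0.74 (adjusted p = 0.00113). The hour of collection and whatever else set the 2 early libraries apart cannot be told apart, since each hour had 1 young ablated library. Over all 40 libraries the log2 levels of Atg13 and Atg17 had a Pearson correlation of 0.937, a description only, since the libraries share strata and batches.

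Neuron markers moved with the genotype in old flies, where the ablated libraries had 50.1 to 55.1 CPM in sum and the wild-type libraries 169 to 253 CPM. In young ablated flies the markers summed to 504, 354, 145, 149, 168 and 199.6 CPM at 0, 1, 2, 4, 6 and 8 h and to 214 CPM in the control, against 157 to 282 CPM in wild-type libraries of either age. The libraries of 0 h and 1 h, highest in Atg17, were thus also highest in neuron markers, those of 2 h and 4 h lay below the wild-type range, and those of 6 h, 8 h and the control lay inside it. Other tissues moved too. In young ablated against young wild-type flies 4 of 7 muscle markers were called higher (summed medians 3269 and 1616 CPM) and 5 of 12 eggshell markers lower (4303 and 7607 CPM). In old ablated against old wild-type flies 2 of 5 fat body markers were called higher and 1 lower (1135 and 2055 CPM). Of the 6 neuron markers, 6 were called lower in old ablated flies and 2 higher in young ablated flies. Of all genes, 33.0% were called in the young comparison and 56.9% in the old one (27% lower). The marker counts stand beside these shares, and whether a list shifted as a whole was not tested. The part of these tissues in the genotype differences was not tested.

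**Figure D4:**
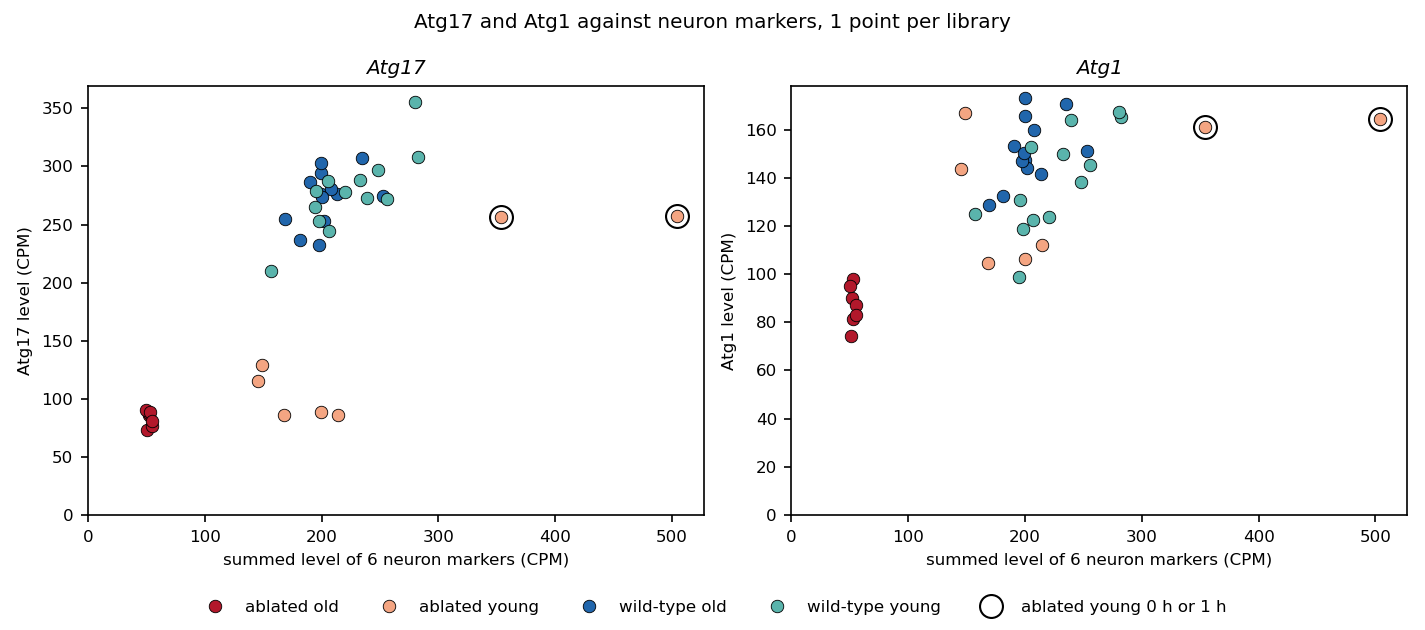
Levels (CPM) of Atg17 (left) and Atg1 (right) against the summed level of 6 neuron markers (CPM), 1 point per library, both axes linear from 0, with rings around the young ablated libraries of 0 h and 1 h. Old ablated libraries lie low on both axes, and 5 young ablated libraries combine 145 to 214 CPM of neuron markers with 85.9 to 129 CPM of Atg17.

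The other members of the kinase complex differed from these. Atg1 was lower in old ablated than in old wild-type flies, with 74.4, 87.3 and 97.8 CPM in ablated and 129, 150.4 and 173 CPM in wild-type libraries, ranges that did not overlap (-0.79 ± 0.11, adjusted p = 1.82e-07). In young flies its difference was 0.01 ± 0.11 (adjusted p = 0.953), with 105 to 167 CPM in ablated and 99.0 to 167 CPM in wild-type libraries. Atg101, which binds and stabilises Atg13, passed in none of the 12 comparisons, and had 14.9 to 22.5 CPM in old ablated and 13.3 to 18.9 CPM in old wild-type libraries (0.15 ± 0.12, adjusted p = 0.293).

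Of the lipid transfer and membrane proteins, Atg2 was higher in ablated flies at both ages and Atg9 was called higher in old flies. Atg2 had 38.0, 49.6 and 58.8 CPM in old ablated and 24.5, 29.8 and 40.1 CPM in old wild-type libraries (0.61 ± 0.10, adjusted p = 4.31e-06, higher in 7 of 7 pairs). In young flies it had 33.2, 42.1 and 55.1 CPM in ablated and 20.1, 28.3 and 37.1 CPM in wild-type libraries (0.48 ± 0.10, adjusted p = 0.000422, higher in 6 of 7 pairs), and it passed without the ablated young control and 6 h libraries as well (0.54, adjusted p = 0.000208). Atg9 was higher in old ablated flies (0.58 ± 0.12, adjusted p = 9.35e-05, higher in 7 of 7 pairs), with 20.1, 32.4 and 41.7 CPM in ablated and 14.3, 20.4 and 29.0 CPM in wild-type libraries. In young flies Atg9 did not pass (0.09 ± 0.12, adjusted p = 0.606). Atg18a passed only in young flies, where it was lower in ablated ones (-0.19 ± 0.07, adjusted p = 0.0326), and this call was lost without the ablated young control and 6 h libraries (-0.12, adjusted p = 0.243).

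ref(2)P was lower in old ablated than in old wild-type flies. The heat-shocked old ablated libraries had 120.4, 123 and 164 CPM (lowest, median and highest of 6), against 159.7, 215 and 298 CPM in the 12 old wild-type ones, and the controls had 75.3 CPM in ablated and 90.6 CPM in wild-type flies. The heat-shocked ranges overlapped slightly, and 7 of 7 pairs were lower (-0.67 ± 0.16, adjusted p = 0.000559). In young flies it did not pass (-0.14 ± 0.16, adjusted p = 0.552). Atg8a was lower in old ablated flies (-0.21 ± 0.08, adjusted p = 0.0247), with 147 to 260.5 CPM in ablated and 176 to 297 CPM in wild-type libraries, a call lost without the 1 h or the 4 h libraries (adjusted p = 0.0690 and 0.0539).

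Counted together, 7 of 9 members passed in ablated against wild-type old flies, 2 higher and 5 lower, where 56.9% of all genes passed. In young flies 4 of 9 passed, 1 higher and 3 lower, where 33.0% of all genes passed. The members' shares lie near those of all genes, so the counts alone say nothing particular of them. No matched pair of genotypes shared a batch, and with batch as a covariate no member passed in either age. The estimates with batch were -1.15 for Atg13 and -1.06 for Atg17 in old flies and -1.29 and -1.40 in young flies, while those of ref(2)P and Atg8a in old flies turned to 0.13 and 0.17.

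Whether the effect of age differed between genotypes was tested as the age effect in ablated minus that in wild-type flies. It passed for 5 of 9 members, where 36.4% of all genes passed: Atg1 (-0.80 ± 0.15, adjusted p = 0.000152), Atg17 (-0.76 ± 0.22, adjusted p = 0.00819), Atg13 (-0.89 ± 0.28, adjusted p = 0.0116), Atg9 (0.49 ± 0.17, adjusted p = 0.0213) and Atg8a (-0.32 ± 0.12, adjusted p = 0.0296). Without the 2 early young ablated libraries the value of Atg13 was -0.34 (adjusted p = 0.0243), that of Atg17 -0.34 (adjusted p = 0.0186) and that of Atg1 -0.69 (adjusted p = 0.000545), while Atg9 no longer passed (0.39, adjusted p = 0.0873). Leaving out all libraries of 0 h ended the calls of Atg8a, Atg9 and Atg13 (adjusted p = 0.100, 0.0851 and 0.0673), and leaving out those of 1 h ended those of Atg8a and Atg9 (adjusted p = 0.0911 and 0.0672). The call of Atg8a held in 11 of 18 alternatives and that of Atg9 in 13. With batch as a covariate none of the 5 calls held, and the values of Atg17 (0.34), Atg13 (0.14) and Atg8a (0.0061) changed sign. For ref(2)P the difference was -0.53 ± 0.22 and did not pass (adjusted p = 0.0616), though it passed in 6 of 18 alternatives, among them without the ablated young control and 6 h libraries (-0.62, adjusted p = 0.0149). With all libraries its rise with age, called in wild type and not in ablated flies, is therefore not shown to differ between them.

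Climbing ability did not separate the members. In the 12 pairs of non-climbers and climbers of 1 age and hour, the fitted log2 fold changes of the 9 members lay between -0.11 for Atg2 and 0.13 for ref(2)P, each with an adjusted p of 1. With ref(2)P, 8 of 12 pairs were higher in non-climbers, over a range of -0.74 to 0.56. Of all genes, 0 of 11449 passed (0%), while 429 had an unadjusted p under 0.05, DESeq2 called 3 and a fit with each pair as a block called 2. Time courses were compared in the 24 heat-shocked climber libraries, as the change in log2 level per unit of log2(hour + 1). No member passed for old minus young wild-type flies or for ablated minus wild-type old flies, where 0 of 11467 genes passed in each (0%), with 403 and 685 genes at an unadjusted p under 0.05 and 17 and 34 called by DESeq2. The slope of Atg8a differed by -0.09 ± 0.07 per unit between old and young wild-type climbers. Between ablated and wild-type old climbers it differed by 0.09 ± 0.07. Its rise thus did not differ detectably in these contrasts at this scatter. The slope of young ablated climbers was not contrasted. In that series the log2 difference of 8 h from 0 h was 0.19 for Atg8a, 0.59 for Atg9, -1.45 for Atg13 and -1.53 for Atg17. Young wild-type climbers had 0.69, 0.44, 0.37 and -0.03 for the same genes.

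Atg8b, the second fly Atg8 gene, known for its expression in the male germ line, was nearly absent. It had no count in 35 of 40 libraries, and its floor of 3 counts stood at 0.0615 to 0.256 CPM in the libraries. Of its 33 counts in all, 17 came from the young wild-type non-climbers at 6 h, 7 from the old wild-type control, 4 from old wild-type climbers at 2 h, 4 from young ablated climbers at 6 h and 1 from old wild-type non-climbers at 6 h. The library with 17 counts had 74.2 CPM of summed testis markers and 33.5 CPM of summed accessory gland markers, while no other library had more than 1.43 CPM of testis markers. Without this library no call of another member changed in 9 comparisons of the 10 that used all libraries, and in old against young ablated flies the adjusted p of Atg13 became 0.0511.

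Further genes of the pathway were counted from lists chosen by function. Of 15 other core autophagy genes, which include the conjugation enzymes and the phosphoinositide kinase complex, none passed in 8 h against 0 h or against the controls. Of all genes, 10.5% passed in 8 h against 0 h, 3.87% in 0 h against control and 0.769% in 4 h against control. In old ablated against old wild-type flies 2 were higher, Atg6 (0.42 ± 0.08), the Beclin of the phosphoinositide kinase complex, and Atg3 (0.40 ± 0.08), the enzyme that attaches Atg8a to lipid, and Atg18b (-0.51 ± 0.17) was lower, where 56.9% of all genes were called. In young flies none of the 15 passed between genotypes, where 33.0% of all genes did. Their median log2 fold change of 8 h against 0 h was 0.07, against -0.06 for all genes.

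Of 22 genes of autophagosome fusion and the lysosome, 5 passed in 8 h against 0 h, where 10.5% of all genes did, and all were higher. They included the cathepsin genes CtsB (0.61 ± 0.08) and CtsF (0.34 ± 0.08), the late endosome GTPase Rab7 (0.54 ± 0.08) and the sterol transporter Npc1a (0.41 ± 0.12). Rab7 was also higher at 4 h than in the controls (0.36 ± 0.09, adjusted p = 0.0443), where 0.769% of all genes passed. The count of all genes in that comparison depended on single controls, and Rab7 was not looked at with a control left out. Of 25 tested subunits or partners of the vacuolar ATPase, the proton pump of the lysosome, 2 were higher at 8 h than at 0 h. In old ablated against old wild-type flies 13 of the 25 were higher and 4 lower, among them Vha36-3 (1.38 ± 0.19) and Vha44 (-0.84 ± 0.07), and of the fusion and lysosome genes 7 were higher and 7 lower, with Vps11 (-1.58 ± 0.16), a tethering subunit, and Lamp1 (-0.80 ± 0.09) among the lower ones. These counts stand beside the 56.9% of all genes called in that comparison. No batch held both old ablated and old wild-type libraries, and genes of the further lists were not looked at with batch as a covariate.

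In TOR and energy control, 7 of 22 genes were lower and 8 higher in old ablated against old wild-type flies. Of all genes, 56.9% were called there, no batch held both groups, and the list's median log2 fold change was 0.14. The 4 genes with the smallest adjusted p were all lower: raptor (-2.98 ± 0.29), the TOR partner, REPTOR (-2.08 ± 0.21), a transcription factor held inactive by TOR, foxo (-1.97 ± 0.20), the transcription factor held back by insulin signalling, and SNF4Agamma (-1.29 ± 0.13), a subunit of AMP-activated kinase. In 8 h against 0 h, where 10.5% of all genes passed, 3 of 22 were higher, REPTOR-BP (0.52 ± 0.10), Thor (0.90 ± 0.22), the translation repressor, and RagA-B (0.25 ± 0.08). Of 12 tested genes of selective autophagy and mitophagy, 2 were higher at 0 h than in controls, where 3.87% of all genes passed. They were stv (3.24 ± 0.48), the co-chaperone that hands clients to autophagy with Hsc70-4, and Hsc70-4 itself (0.30 ± 0.08). The gene stv is also among the inducible heat shock genes used for the index. BNIP3 (0.80 ± 0.19, adjusted p = 0.0405), a mitophagy receptor, was higher at 4 h than in controls, where 0.769% of all genes passed. It was not looked at with a control left out either.

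The genes most like 2 members were listed by the Pearson correlation of log2 CPM over the 40 libraries, among the 7023 genes whose average log2 CPM reached 3. For Atg8a they were Fst (0.856), Rab7 (0.856), Drat (0.850), CG1572 (0.817) and Chmp1 (0.815). For ref(2)P they were Xbp1 (0.884), the transcription factor of the unfolded protein response, GramD1B (0.838), kug (0.823), pes (0.821) and ctrip (0.818). These values describe libraries that share strata, hours and batches and carry no test. Between Atg8a and ref(2)P themselves the correlation was 0.114.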

How the data were processed

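The authors deposited raw counts per gene, 1 column for each of 40 libraries; per the submitters' processing notes, STAR 2.7.5a and the dm6 build were used, and per the labels libraries came from a 3' kit and only read 1 was analysed. The counting tool, its annotation and strand setting were not given in the sources used here. Of the genes, 17596 of 17609 were matched to a symbol, and library totals ran from 11714961 to 48747409. Floors of 3 counts cover counting error only.

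The quasi-likelihood test of edgeR 4.0.16 (R 4.3.3) was run on the counts as deposited (robust fit, TMM, filterByExpr, 11449 genes, Benjamini-Hochberg over all of them, threshold 0.05). Terms were stratum, state (control or hour) and non-climber in young and in old wild type, with 28 residual degrees of freedom. Slopes used 24 climber libraries (11467 genes, 12 degrees of freedom). Batch entered as an alternative. Other alternatives used DESeq2 1.42.0, limma 3.58.1 (voom, batch as a random block), RLE factors, no count filter and fewer libraries; leaving out the ablated young 0 h and 1 h libraries, or the wild-type young 6 h non-climbers, was chosen after seeing the data. The fit was tested on counts simulated without batch effects or libraries that stand apart, so that test says nothing of either. No 2 columns were identical. Labels gave no cultures or animals per library.

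All 10 members are named, and from each further list at most 4 genes per comparison with the smallest adjusted p. Lists were written from general knowledge, and members and lists were chosen with earlier results of these data known. Figures used matplotlib 3.10.9.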

Additional observations from a re-analysis of the deposited data

Results flagged for a closer look

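For 5 members the effect of age differed between genotypes by the test of the difference itself, given as the age effect in ablated flies minus that in wild type on the log2 scale. It was -0.80 for Atg1 (-0.7982), where age lowered the level in ablated flies (-0.65) and gave 0.15 in wild type. It was -0.32 for Atg8a (-0.3171), which gave -0.07 with age in ablated flies and rose by 0.25 in wild type, and 0.49 for Atg9 (0.4886), which rose by 0.30 in ablated flies and gave -0.19 in wild type. It was -0.89 for Atg13 (-0.8944) and -0.76 for Atg17 (-0.7555), whose young ablated libraries of 0 h and 1 h lay at the wild-type level. Of all genes, 36.4% passed the same test. The call of Atg8a held in 11 of 18 alternatives and that of Atg9 in 13. None of the 5 passed with batch as a covariate.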

How the results depend on the processing

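Over 108 results for single members, 1836 values were recomputed, of which 1717 kept their direction and side of the threshold, 81 lost and 32 gained a call, and 6 turned. Signs that differed between values that both missed the threshold were not counted as turns. Atg8a in 8 h against 0 h (0.67 to 0.76), Atg9 in the same comparison (0.54 to 0.72), Atg8a among hours and ref(2)P in 0 h against control (0.86 to 1.11) passed in each of their 16, 16, 18 and 17 alternatives.

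With batch as a covariate 0 members passed in both age comparisons, both genotype comparisons and their interaction, against 1 among hours and 2 each at 0 h and 4 h against control; values turned to 0.17 for Atg8a and 0.13 for ref(2)P in ablated against wild type, old, and to 0.01 (0.0061) for Atg8a, 0.14 for Atg13 and 0.34 for Atg17 in the interaction. The cause was not tested. Batch as a random block gave 1 member at 4 h and 3 in the interaction. DESeq2 gave 2 members at 0 h, 2 at 4 h and 3 with age in ablated flies, RLE factors 3 and no count filter 2 in the last. With RLE factors 32.0% of the genes called with age in ablated flies were higher, against 42.5% with TMM.

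Without the ablated young control and 6 h libraries 2 members passed at 4 h and 3 with age in ablated flies. Without the ablated young 0 h and 1 h libraries, chosen after the data were seen, 2 passed at 0 h, 3 at 4 h and 3 with age in ablated flies, where Atg13 turned to 0.055 (adjusted p = 0.690). The 10 libraries of 4 h alone gave 3 at 4 h. With any single hour or control left out, there were 1 to 4 members among hours, 3 to 5 in 8 h against 0 h, 0 to 2 at 4 h, 2 to 5 with age in ablated flies and 2 to 6 in the interaction. With each age and hour pair of non-climber and climber libraries as a replicate block, 0 members and 2 genes passed, against 0 genes without it.

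Among all genes, batch as a covariate gave 384 calls among hours (997 without it), 306 in 8 h against 0 h (1201), 226 at 4 h (88), 973 and 79 with age in ablated and wild-type flies (4241 and 2692), 199 and 202 with genotype in old and young flies (6515 and 3779) and 286 in the interaction (4162). DESeq2 and voom gave 777 and 686 at 0 h (443). At 4 h (88) DESeq2 gave 269, no count filter 56, the 4 h libraries alone 337, leaving out the ablated young control and 6 h 379 and the ablated young 0 h and 1 h 223, and single hours or controls left out 5 to 277. Without 0 h, 495 genes passed among hours.

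Each condition had 1 library, so hour, batch and stratum are only partly separable, and low counts limit Atg8b (33 in all).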
